A study of Homo sapiens with 8 samples.

Results

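m6A peaks were examined at the places where an antisense long noncoding RNA gene and a protein-coding gene occupy the same DNA or lie close enough for 1 peak to reach both. A peak was included if it overlapped, by at least 1 bp, both a RefSeq lncRNA gene whose symbol ends in -AS and a digit and the body of a protein-coding gene (GRCh38.p14 table). Of 53021 peaks in all, 933 met this rule: 418 of 23937 in the list of METTL3 knockout cells and 515 of 29084 in the list of wild-type cells. They lay in 420 of 2026 such antisense genes and in 436 coding genes. Another 205 knockout and 248 wild-type peaks lay in one of these antisense genes but outside every coding gene. Peaks in a coding gene and outside these antisense genes, 17797 in the knockout and 22146 in the wild type, served as the background.

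The cells were HEK293T, an established human embryonic kidney line, either with METTL3 knocked out or parental (wild type). RNA attached to chromosomes was isolated, cleared of DNA and ribosomal RNA and precipitated with an m6A antibody kit, and IP and input were made into stranded libraries. The 8 samples form 4 groups, knockout IP, knockout input, wild-type IP and wild-type input, with 2 replicates in each. Whether the knockout line is a single clone, and which part of METTL3 it lacks, the sources used here do not say. Only 1 peak list per genotype was analysed, with no value per replicate, so no difference between the lists could be set against the spread between replicates and no test was run. Depth per library is unknown. IP reads at the summit, recovered from the deposited fold and p-value, had a median of 28 (quartiles 17 and 50) for overlap peaks in the knockout and 23 in the wild type, against 31 over all knockout peaks and 24 over all wild-type peaks.

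METTL3 is the catalytic subunit of the enzyme that writes N6-methyladenosine on nascent RNA, and its best known sites hold the core GGAC. Antisense lncRNAs are transcribed from the strand opposite to a coding gene, often stay in the nucleus, and can act on the transcription, splicing or stability of the gene they overlap. Because the transcripts of such a pair run in opposite directions over the same DNA, a peak there can belong to either, and only its strand tells them apart. The targeted gene, METTL3, had 0 peaks in the knockout list and 2 in the wild-type list, with folds over input of 4.83 and 4.91. Among the 1757 coding genes that hold 2 peaks in the wild type, 32% lacked any in the knockout, so this says little about the genotype labels. The label of chromosome-attached RNA has no marker in a peak list and was not checked further.

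A few peaks reached the promoter window of a gene in RefSeq GRCh38.p14, and there the sequence under the peak could be read. These windows run from 250 bases before to 50 bases after a gene's start, and a peak can touch a window without covering the start. In the knockout list 2 of 12 peaks over the window of an antisense gene lay on its strand and 10 on the other. In the wild-type list these numbers were 2 of 21 and 19. The 2 include the peak over ZBED3-AS1, whose window is also that of PDE8B, a coding gene on the same strand. Strand cannot separate these genes, and the peak is counted for both. Over all overlap peaks whose annotated strands tell the genes apart, 24.1% in the knockout and 24.4% in the wild type lay on the antisense strand. The counts in windows are too small to say whether they differ from these shares. Over the windows of coding genes 4 of 9 knockout peaks and 16 of 19 wild-type peaks lay on the strand of the coding gene. Examples, chosen after their values were seen, are given to show the genomic sequence under a peak at a start on each kind of strand. Most of a window lies before the gene's start, so a stretch can hold bases outside the annotated transcript. Each is the part of the window under the peak, 5′ to 3′ on the strand of the gene and the peak, with GGAC in capitals. CKMT2-AS1 lies at chr5:81301520-81301600 on the minus strand, under a knockout peak of 9.90-fold. AGAP2-AS1 lies at chr12:57726213-57726289 on the plus strand, under a wild-type peak of 7.54-fold. NEXN, the gene of an actin-binding muscle protein, lies at chr1:77888490-77888673 on the plus strand, under a knockout peak of 10.3-fold. KMT2E, a gene of the SET-domain family of chromatin proteins, lies at chr7:105014089-105014254 on the plus strand, under a wild-type peak of 10.9-fold. ZEB1, a transcription factor gene of epithelial-mesenchymal transition, lies at chr10:31319107-31319265 on the plus strand, under a knockout peak of 7.43-fold. The wild-type peak there, of 6.13-fold, covers this stretch only from 31319123 on.
CKMT2-AS1: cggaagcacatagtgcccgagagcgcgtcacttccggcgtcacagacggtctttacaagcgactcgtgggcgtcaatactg
AGAP2-AS1: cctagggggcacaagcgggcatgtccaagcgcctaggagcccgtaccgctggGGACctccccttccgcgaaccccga
NEXN: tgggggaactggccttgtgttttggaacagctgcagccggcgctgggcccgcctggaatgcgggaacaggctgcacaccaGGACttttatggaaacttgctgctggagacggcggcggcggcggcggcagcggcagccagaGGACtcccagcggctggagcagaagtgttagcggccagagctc
KMT2E: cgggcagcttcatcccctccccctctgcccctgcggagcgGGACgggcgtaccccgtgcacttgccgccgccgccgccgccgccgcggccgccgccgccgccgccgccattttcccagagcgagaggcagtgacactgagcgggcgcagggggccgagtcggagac
ZEB1: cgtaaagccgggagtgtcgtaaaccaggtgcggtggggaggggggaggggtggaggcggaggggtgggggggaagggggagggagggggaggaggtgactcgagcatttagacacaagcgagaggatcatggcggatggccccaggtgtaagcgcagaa
The stretch in NEXN held 2 copies of GGAC, both followed by T. Those in AGAP2-AS1 and KMT2E held 1 each, and those in CKMT2-AS1 and ZEB1 held 0. The copy in KMT2E and 1 of those in NEXN lie before the annotated start of the gene. The ZEB1 peak was present at the same place in both lists, with 94 IP reads in the knockout and 61 in the wild type, and lay on the strand of ZEB1 and not of ZEB1-AS1.

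Taking whole windows under a peak on the same strand, 21 of 24 (87.5%) held GGAC on that strand and 9 of 24 (37.5%) held GGACT. Over all 34943 windows the shares were 66.3% and 25.2%. When either strand of the window was searched, GGAC was in 91.7% of the 24 and in 87.4% of all windows. GGACT is contained in the count of GGAC. These are matches of letters in windows of equal length, not sites, and promoter windows differ in base composition. The search took in bases outside the peak, so the shares are not of GGAC under peaks. In MATN1-AS1 the peak covered 5 bases of the window and in PRKAG2 13, and the GGAC of these windows lay outside that stretch. RNF217 and TSC22D1 each entered with overlapping windows under the same peak.

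The strand of the other peaks of each coding gene was used to tell the transcripts apart. A peak was called opposite-strand if it lay on the strand opposite to most other peaks of its coding gene in the same list, counting those outside every such antisense gene, and coding-strand if it lay with them. In the knockout 41 overlap peaks were opposite-strand, 211 coding-strand and 166 unassigned, since their coding gene had no other peak or a tie. The wild-type list had 51 opposite-strand, 255 coding-strand and 207 unassigned peaks, and 2 whose coding genes disagreed. Opposite-strand peaks thus made up 16.3% of the assigned overlap peaks in the knockout (41 of 252, 95% Clopper-Pearson interval 11.9 to 21.4) and 16.7% in the wild type (51 of 306, 12.7 to 21.3). The same call over the background gave 4.76% in the knockout (695 of 14616) and 4.72% in the wild type (882 of 18705). Where background peaks lay over some other lncRNA gene, the share was 9.94% in the knockout and 8.11% in the wild type. Where they lay over no lncRNA gene, it was 4.52% in the knockout and 4.55% in the wild type. The share over antisense genes was therefore above the background in each list, with intervals that did not overlap those of the background as a whole. The interval for peaks over other lncRNA genes overlapped that of the antisense overlaps in the knockout (7.70 to 12.6) and did not in the wild type (6.39 to 10.1). Intervals here and below cover counting error only, and peaks of 1 gene are not independent.

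**Figure D1:**
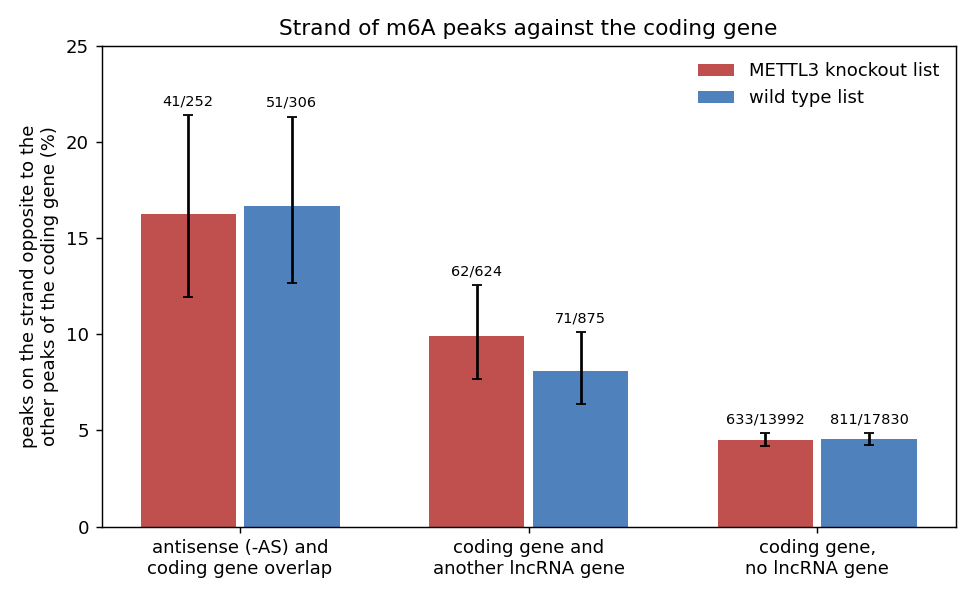
Share of strand-assigned peaks (percent, vertical axis) lying opposite to most other peaks of their coding gene, for antisense overlaps, coding genes with another lncRNA gene and coding genes with none. Red bars are the METTL3 knockout list and blue bars the wild-type list, error bars are 95% Clopper-Pearson intervals, and the counts stand above. Antisense overlaps reach 16.3% in the knockout and 16.7% in the wild type, and coding genes with no lncRNA gene 4.52% in the knockout and 4.55% in the wild type.

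The annotated strands of the genes gave a separate reading. A strand was available for 1520 of the 2026 antisense genes and 15843 of 20056 coding genes. Of overlap peaks with a strand call and known, opposed gene strands, the call matched the annotation in 163 of 174 in the knockout and 207 of 218 in the wild type. Against the annotated strand of the coding gene alone, the opposite-strand share was 25.9% in the knockout (96 of 370, 21.6 to 30.7) and 24.7% in the wild type (108 of 438, 20.7 to 29.0). The background by the same measure was 6.67% in the knockout and 6.17% in the wild type. Where both genes had a strand and the strands were opposed, 68 of 282 knockout peaks (24.1%) and 84 of 344 wild-type peaks (24.4%) lay on the strand of the antisense gene. This leaves out pairs annotated on 1 strand and peaks over genes of a kind on both strands. Peaks that could not be called from other peaks were on the antisense strand in 33 of 108 knockout and 41 of 126 wild-type cases. Coding genes without peaks of their own elsewhere were thus left out by the peak-based call, and the annotated reading keeps them.

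The calls that went against the annotation came from a few genes. At TACR1-AS1, opposite to the substance P receptor gene TACR1, 4 knockout and 2 wild-type peaks on the plus strand were called coding-strand, because the other peaks in TACR1 were also on the plus strand. TACR1 is annotated on the minus strand. At FSIP2, a gene of the sperm fibrous sheath annotated on the plus strand, most other peaks lay on the minus strand, 5 of 6 in the knockout and 6 of 9 in the wild type. The plus-strand peaks over FSIP2-AS1, 1 in the knockout and 3 in the wild type, were therefore called opposite-strand. ZNF337-AS1 gave 3 such cases in the knockout, SLC5A4-AS1 gave 2 and PXN-AS1 gave 1, and 6 other genes gave 1 each in the wild type. In 14 knockout and 15 wild-type peaks the genes are annotated on 1 strand, and strand cannot separate them. STX18-AS1 and the coding gene LOC124900165 are such a pair, with 6 knockout and 7 wild-type peaks, all on the plus strand.

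Opposite-strand peaks lay in 32 antisense genes in the knockout and 39 in the wild type, with 14 genes in both. Those 14 were CLYBL-AS3, CACNB2-AS1, FAR2-AS1, KANSL1L-AS1, FSIP2-AS1, SH3BP5-AS1, SLFNL1-AS1, TRHDE-AS1, GALNT9-AS1, HSDL2-AS1, PHC2-AS1, RNF213-AS1, SH3D19-AS1 and UBXN7-AS1. Coding-strand peaks lay in 125 antisense genes in the knockout and 154 in the wild type, with 59 in both. Of all 420 antisense genes with an overlap peak of any class, 142 (33.8%) had one in both lists. Of coding genes with 1 to 3 peaks in all, 32.2% had peaks in both. A gene is missing from either overlap where its peaks in 1 list had no call, as at MCM3AP-AS1, ASMTL-AS1 and EMC3-AS1 for the opposite strand. A peak is said to have a partner if it shared at least 1 bp on the same strand with a peak of the other list. Of the opposite-strand peaks, 10 of 41 in the knockout and 8 of 51 in the wild type had a partner. Some of these partners could not be called, as at MCM3AP-AS1, ASMTL-AS1, ZNF337-AS1 and EMC3-AS1. Other shared peaks lay on the annotated antisense strand but were unassigned in both lists, as at ENTPD1-AS1, LIPE-AS1, NUTM2B-AS1 and SLC9A3-AS1. Only 6 shared peaks were called opposite-strand in both lists. They are described next, in the order of their fold in the knockout, where fold is the authors' enrichment of IP signal relative to local input. Its scale differs between the lists, so a larger listed value is not by itself a stronger enrichment.

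CACNB2-AS1 runs against CACNB2, the gene of an auxiliary subunit of voltage-gated calcium channels. Its strongest peak lay on the minus strand of chromosome 10, at 18513067 to 18513695 with a fold of 18.6 and 74 IP reads in the knockout, and at 18513326 to 18513690 with 12.6 and 51 reads in the wild type. It was the opposite-strand peak of highest fold in the knockout and the next highest in the wild type. The other peaks of CACNB2 were on the plus strand, 9 of 10 in the knockout and 5 of 5 in the wild type. The knockout list held 1 more opposite-strand peak in this gene, of 12.3-fold, and the wild-type list 3 more, of 8.15, 6.95 and 3.67-fold. A single wild-type peak of 5.96-fold there lay on the strand of CACNB2.

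CLYBL-AS3 overlaps CLYBL, which encodes a mitochondrial lyase. Its shared peak at chromosome 13, 99789954 to 99790178, minus strand, had a fold of 11.7 with 28 reads in the knockout and 4.91 with 24 reads in the wild type. UBXN7-AS1 overlaps UBXN7, the gene of an adaptor of the segregase p97. Its peak at chromosome 3, 196431716 to 196431948, plus strand, had 10.4 and 23 reads in the knockout and 8.51 and 32 reads in the wild type, and its summit lay 499 bp from the annotated start of UBXN7-AS1 in the knockout and 528 bp in the wild type. PHC2-AS1 overlaps PHC2, a gene of Polycomb repressive complex 1, and its peak at chromosome 1, 33360912 to 33361114, plus strand, had 7.92-fold in the knockout and 7.89-fold in the wild type. The peak over FSIP2-AS1 had 6.40-fold in the knockout and 7.54-fold in the wild type. HSDL2-AS1 overlaps the hydroxysteroid dehydrogenase-like gene HSDL2, and its peak at chromosome 9, 112468624 to 112468823, minus strand, had 4.86-fold with 31 reads in the knockout and 10.9-fold with 20 reads in the wild type. The listed fold was larger in the knockout for 4 of the 6 and smaller for 2. Apart from that over FSIP2-AS1 all lay on the annotated strand of the antisense gene.

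Other opposite-strand peaks of high fold were found in 1 list. In the knockout these were IPO9-AS1 over NAV1, a neuron navigator gene, with a fold of 15.2 and 51 reads, BRWD1-AS2 over the bromodomain gene BRWD1 with 12.3 and 39 reads, and PKN2-AS1 over the kinase gene PKN2 with 11.7 and 43 reads. The wild-type list had JAZF1-AS1 over the zinc finger gene JAZF1 with 10.7 and 19 reads. The peak of highest fold on the opposite strand in the wild type was over EMC3-AS1, at chromosome 3, 10004766 to 10005355, plus strand, with 13.2-fold and 81 reads. EMC3 encodes a subunit of the endoplasmic reticulum membrane complex. A knockout peak lay at the same place, with 3.95-fold and 105 reads, but EMC3 had no other knockout peak from which to call it, and 2 further knockout peaks of 4.38 and 4.73-fold lay on the same strand of that gene. More IP reads therefore stood beside a lower fold in the knockout.

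MCM3AP-AS1, an antisense RNA often studied in tumours, overlaps MCM3AP, a gene of mRNA export. All 4 of its knockout peaks lay on the plus strand and were called opposite-strand, with folds of 7.52, 6.41, 6.38 and 4.59. All 3 of its wild-type peaks lay on that strand too, with folds of 7.34, 7.51 and 8.39, but the other wild-type peaks of MCM3AP were split 1 and 1, and no call was made. By annotation all 7 are on the strand of MCM3AP-AS1, and 2 were at the same place in both lists. ASMTL-AS1 also had 4 opposite-strand knockout peaks, of 9.77, 6.75, 6.08 and 3.54-fold, and 1 unassigned wild-type peak of 8.81-fold at the place of the first. It lies on chromosome X in a region with a near-identical copy on chromosome Y, so its reads are uncertain.

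**Figure D2:**
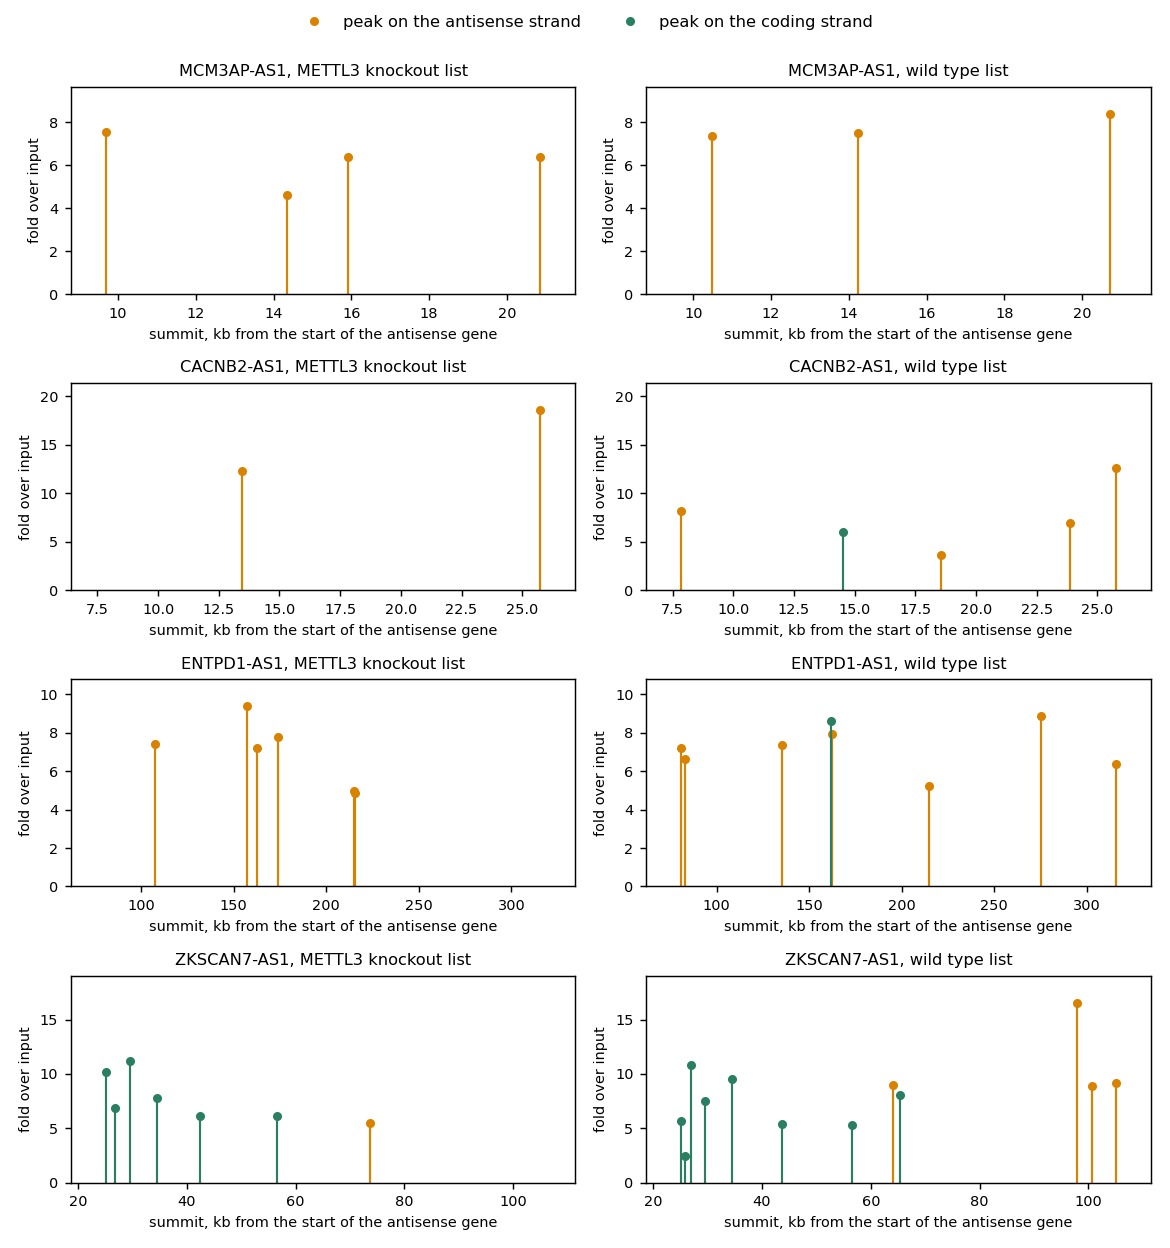
Peaks in 4 antisense genes that overlap coding genes: fold over input (vertical axis) against the distance of the summit from the start of the antisense gene (kb), with the METTL3 knockout list on the left and the wild-type list on the right. Each stem is 1 peak, orange on the antisense strand and green on the coding strand by annotation. MCM3AP-AS1 has orange stems in both lists, and ZKSCAN7-AS1 has green stems nearer its start and orange stems mostly farther away.

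The antisense genes with most overlap peaks differed in which transcript the peaks followed. ZKSCAN7-AS1, on chromosome 3, crosses a run of zinc finger genes and had 7 peaks in the knockout and 12 in the wild type, none of which could be called from other peaks. By annotation 6 of the 7 knockout peaks and 8 of the 12 wild-type peaks were on the strand of the coding genes ZNF35, ZNF197 or the readthrough ZNF660-ZNF197, and 5 of these were at the same place in both lists. The antisense-strand peaks, 1 of 5.51-fold in the knockout and 4 of 8.85 to 16.6-fold in the wild type, were not shared. Their summits lay 73666 bp from the start of ZKSCAN7-AS1 in the knockout and 64138 to 105022 bp in the wild type, while those on the coding strand lay 25102 to 56512 bp away in the knockout and 25154 to 65386 bp in the wild type.

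ENTPD1-AS1 showed the other arrangement. It overlaps ENTPD1, the gene of the ATP-hydrolysing ectoenzyme CD39, and CC2D2B. All 6 knockout peaks, of 4.86 to 9.37-fold, and 7 of 8 wild-type peaks, of 5.23 to 8.85-fold, were on the strand of ENTPD1-AS1 by annotation, and 2 were shared. The remaining wild-type peak, of 8.61-fold and 15 reads on the coding strand, overlapped a wild-type antisense-strand peak of 7.93-fold and 16 reads by 150 bp. KCNMB2-AS1 had 5 knockout and 10 wild-type peaks in KCNMB2, the gene of a potassium channel subunit, and all 15 lay on the minus strand, opposite to the annotated strand of KCNMB2. Their folds were 5.19 to 10.1 in the knockout and 6.22 to 14.5 in the wild type, and 2 were shared. ELP4-AS1, in contrast, had 8 knockout peaks of 5.12 to 14.1-fold and 5 wild-type peaks of 3.91 to 14.1-fold, all on the strand of ELP4, an Elongator subunit gene, with 1 shared.

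**Figure D3:**
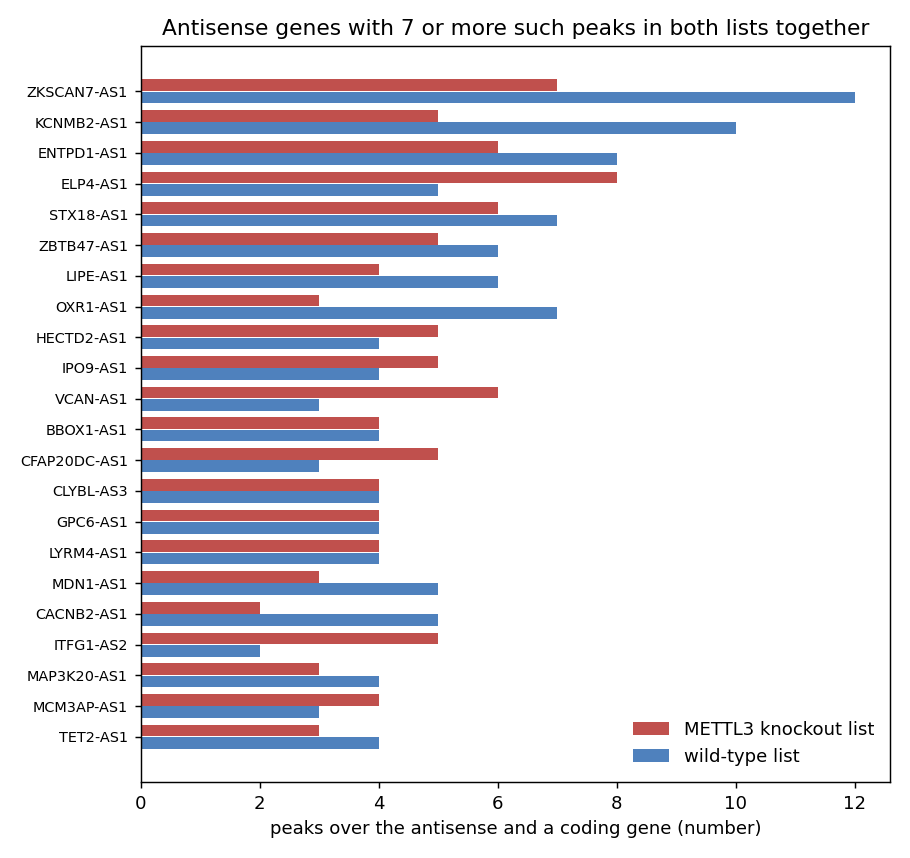
Number of overlap peaks (horizontal axis) in each antisense gene with 7 or more in both lists together, with the METTL3 knockout list in red above the wild-type list in blue. ZKSCAN7-AS1 has 7 in the knockout and 12 in the wild type, and ELP4-AS1 has 8 in the knockout and 5 in the wild type.

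Most antisense genes held few such peaks. A single overlap peak was found in 179 of 258 antisense genes in the knockout and in 200 of 304 in the wild type. Overlap peaks on both strands were found in 11 of the 258 antisense genes in the knockout and 22 of the 304 in the wild type. A gene with a single peak cannot hold both. The same count was not made over coding genes at large, so these numbers have no background beside them. At LIPE-AS1, opposite to the hormone-sensitive lipase gene LIPE, the knockout peaks on the plus strand (8.94-fold, 77 reads) and the minus strand (3.58-fold, 7 reads) were 186 bp apart. TRHDE-AS1, opposite to the gene of the thyrotropin-releasing hormone degrading enzyme, had an antisense-strand peak of 6.24-fold in the knockout and 7.86-fold in the wild type, at different places, and a knockout peak of 20.4-fold on the strand of TRHDE.

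On the coding strand the peaks of highest fold in the knockout lay over TRHDE-AS1, over CEP250-AS1 (17.5) in the centrosomal gene CEP250, ZMYM4-AS1 (17.2) in ZMYM4, ZNF451-AS1 (17.2) in ZNF451 and GREB1L-AS1 (16.3) in GREB1L. Those in the wild type lay over GPC6-AS2 (23.6) in the glypican gene GPC6, GBX2-AS1 (20.6) in ASB18, TACR1-AS1 (16.9) in TACR1, OXR1-AS1 (16.5) in OXR1 and SNED1-AS1 (15.8) where SNED1 and MTERF4 meet. None of these 10 had a partner, in lists where 75.2% of all knockout peaks and 79.6% of all wild-type peaks had none. The calls differ in how firm they are. The GPC6 peak was set against 35 other wild-type peaks of that gene, all on the plus strand, whereas the ASB18 and TACR1 peaks were each set against 1 and lie on the annotated strand of the antisense gene. The peak over SNED1-AS1 lies on the minus strand, which is that of SNED1-AS1 and opposite to SNED1, and was called with 2 other minus-strand peaks of the coding genes there, which are annotated on both strands.

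Opposite-strand and coding-strand peaks had similar folds within each list. The median fold was 6.95 (quartiles 6.20 and 9.77) for opposite-strand and 7.06 (5.89 and 8.79) for coding-strand peaks in the knockout. In the wild type it was 7.54 (5.60 and 8.45) for opposite-strand and 7.25 (6.24 and 9.18) for coding-strand peaks. The medians of all overlap peaks were 7.06 in the knockout and 7.22 in the wild type, against 7.06 over all knockout peaks and 7.29 over all wild-type peaks. The quartile ranges overlapped in every one of these comparisons.

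The arrangement of the genes was set beside the annotated strand of the peaks. Where the antisense gene lies inside the coding gene, 17.4% of 115 knockout peaks (10.96 to 25.6) and 17.0% of 141 wild-type peaks (11.2 to 24.3) were on the antisense strand. Where the coding gene lies inside the antisense gene, the shares were 34.5% of 29 knockout peaks (17.9 to 54.3) and 36.6% of 41 wild-type peaks (22.1 to 53.1). With the genes meeting at their ends they were 24.0% of 100 knockout peaks and 28.0% of 118 wild-type peaks. With the genes meeting at their starts they were 36.8% of 38 knockout peaks (21.8 to 54.0) and 27.3% of 44 wild-type peaks (14.96 to 42.8). Pairs that meet were sorted by direction, without a check that the gene bodies overlap. Those of KMT2E and KMT2E-AS1, for example, do not. The lowest share was that of the nested antisense genes, but its interval overlapped those of the other classes in each list. The summits of antisense-strand peaks lay at a median of 16548 bp from the annotated start of the antisense gene in the knockout and 17517 bp in the wild type. Within 1000 bp of that start were 8 of 68 (11.8%) in the knockout and 4 of 84 (4.76%) in the wild type. Among coding-strand peaks, 20 of 214 (9.35%) in the knockout and 32 of 260 (12.3%) in the wild type lay within 1000 bp of the antisense gene's start.

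Most overlap peaks had no partner in the other list. This held for 78.2% of knockout peaks (327 of 418, 74.0 to 82.1) and 82.5% of wild-type peaks (425 of 515, 79.0 to 85.7). Over all peaks the shares were 75.2% in the knockout and 79.6% in the wild type, and over the coding-gene background 73.4% in the knockout and 78.6% in the wild type. Most peaks of either list lack a partner whatever the gene, and the overlap peaks were near that level. Opposite-strand overlap peaks lacked a partner in 75.6% of the knockout (31 of 41, 59.7 to 87.6) and 84.3% of the wild type (43 of 51, 71.4 to 93.0). Coding-strand overlap peaks lacked one in 76.3% of the knockout and 83.1% of the wild type. The background of opposite-strand peaks outside antisense genes gave 82% in the knockout and 85.1% in the wild type.

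Read support moved with this share. Overlap peaks without a partner had a median of 25 IP reads in the knockout and 21 in the wild type, and those with one had 50 in the knockout and 41.5 in the wild type. In the knockout 96.4% of overlap peaks with up to 15 reads had no partner (background 94.2%), as did 82.4% at 16 to 30 reads (86.6%), 76.4% at 31 to 60 (71.9%) and 51.3% above 60 (39.7 to 62.8, background 43.7%). In the wild type the shares were 94.3% (94.7%), 88.3% (88.1%), 72.3% (72.1%) and 58.8% (46.2 to 70.6, background 43.1%). In the class above 60 reads the wild-type share lay above the background with an interval that did not include it, and the knockout interval included it. A recovered read weighs less in the knockout fold than in the wild type (scale 0.479 and 0.438 on the plus and minus strands, against 0.607 and 0.572), so a class is not the same support in both lists.

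**Figure D4:**
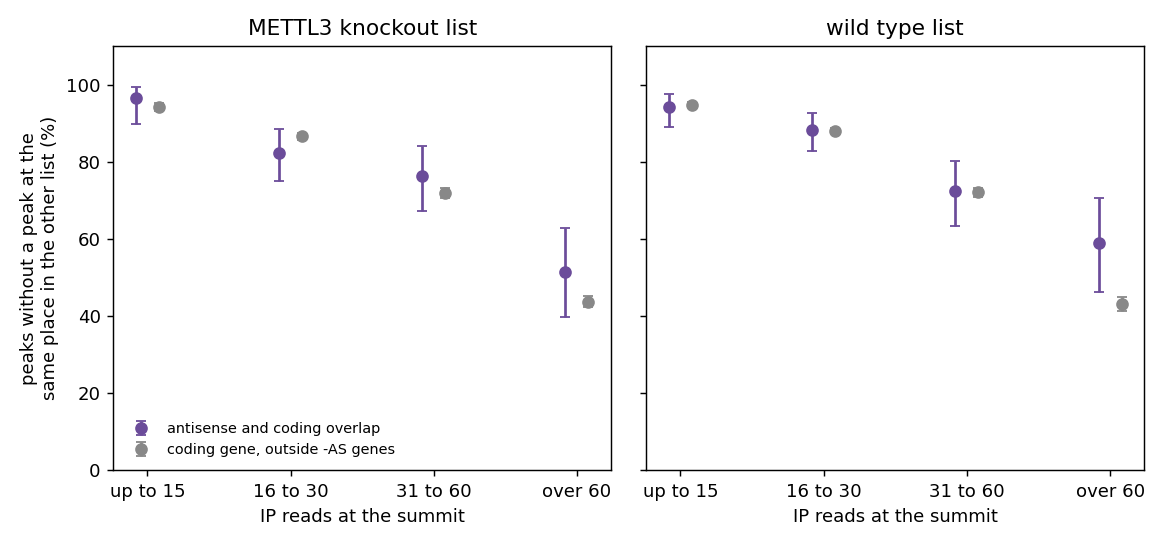
Share of peaks without a partner in the other list (percent, vertical axis) by IP reads at the summit, for antisense overlaps (purple) and the coding-gene background (grey), with the METTL3 knockout list on the left and the wild-type list on the right. Error bars are 95% Clopper-Pearson intervals. The shares fall with reads in each panel, and the purple and grey points lie apart most above 60 reads in the wild type, at 58.8% and 43.1%.

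Antisense genes with an overlap peak were found in both lists in 142 cases, in the knockout alone in 116 (27.6% of 420) and in the wild type alone in 162 (38.6%). Of all 9592 coding genes with a peak, 17.2% had peaks in the knockout alone and 27.2% in the wild type alone. Genes with few peaks are in 1 list more often. Of coding genes with 1 to 3 peaks in all, 26.4% had them in the knockout alone and 41.4% in the wild type alone, and of antisense genes with 1 to 3 overlap peaks in all, 31.9% in the knockout alone and 44.8% in the wild type alone. Peaks with a partner were found in 75 of the 142, and formed 90 pairs. In 69 pairs the strand class was the same in both lists, with 6 opposite-strand, 38 coding-strand and the rest unassigned, and in 1, over SLC5A4-AS1, the calls were opposite. The SLC5A4-AS1 pair lay on the plus strand, with 5.04-fold in the knockout and 6.57-fold in the wild type, and SLC5A4, a sugar transporter family gene, had 1 other peak in each list, on the plus strand in the knockout and on the minus strand in the wild type. Across the 90 pairs the log2 of knockout over wild-type fold had a median of 0.12 (quartiles −0.37 and 0.40), and 48 of 90 were higher in the knockout. Over all 5938 shared pairs the median was 0.01, on scales that differ between the lists.

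**Figure D5:**
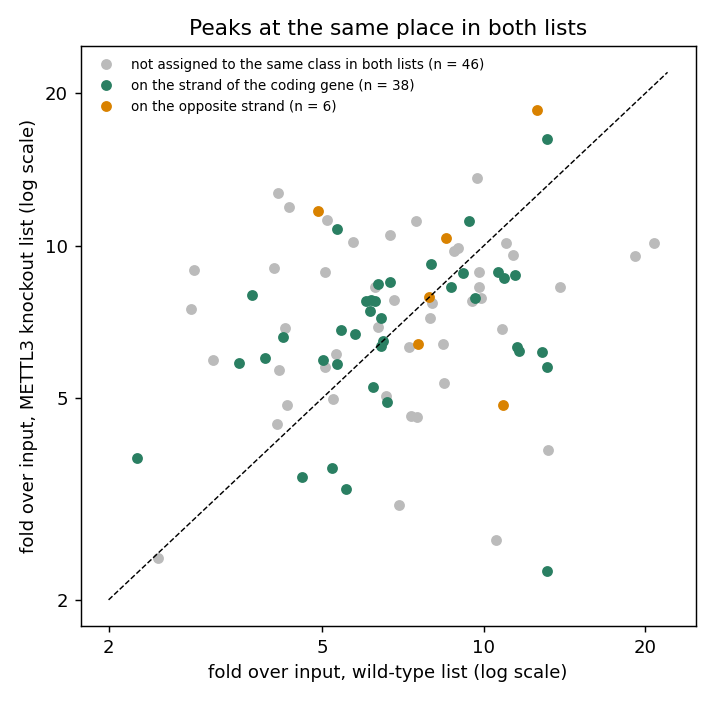
Fold over input in the METTL3 knockout list (vertical axis, log scale) against the wild-type list (horizontal axis, log scale) at the 90 overlap peaks present at the same place in both. Orange points are opposite-strand and green points coding-strand in both lists, grey points are the rest, and the dashed line marks equal folds. The points scatter on both sides of the line, and the topmost orange point is CACNB2-AS1, at 18.6 in the knockout and 12.6 in the wild type.

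Some well known genes were looked up from lists. Of 36 often studied antisense RNAs, 3 have symbols outside the rule, and 29 fit the rule and overlap a coding gene. Of these 29, 8 had an overlap peak in the knockout (27.6%) and 8 in the wild type (27.6%), with 4 in both. Over all 1842 antisense genes that fit the rule and overlap a coding gene, the shares were 14% in the knockout and 16.4% in the wild type. They held 15 knockout peaks, 4 of them opposite-strand, and 11 wild-type peaks, 2 of them opposite-strand. The 4 in the knockout were those of MCM3AP-AS1, and the 2 in the wild type lay over SBF2-AS1 (10.3-fold) and PSMA3-AS1 (2.51-fold). PCBP1-AS1 had 4 knockout and 2 wild-type peaks, of which 3 in the knockout and 2 in the wild type lay over ASPRV1 on the strand that both genes share. AFAP1-AS1, opposite to an actin filament-associated gene, had 2 knockout peaks, of 7.28 and 6.31-fold, and 0 in the wild type.

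Of 30 coding genes of chromatin regulation, 9 overlap such an antisense gene. Among these 9, 2 had overlap peaks in the knockout, TET2 and BRWD1, and 1 in the wild type, TET2. KMT2E had a wild-type peak that reaches KMT2E-AS1, although the gene bodies themselves do not overlap. Over all 1913 coding genes that overlap such an antisense gene, 14.1% had an overlap peak in the knockout and 16.5% in the wild type. The gene with peaks in both lists was TET2, which encodes a 5-methylcytosine dioxygenase. Its 3 knockout peaks, of 12.95, 5.95 and 3.43-fold, and its 4 wild-type peaks, of 10.5, 7.77, 5.44 and 3.13-fold, were all on the annotated strand of TET2, and 1 was shared. Of 30 long genes of neural adhesion and synapses, 17 overlap such an antisense gene, and 2 of these had overlap peaks in the knockout and 5 in the wild type, with 1 in both. They held 2 knockout and 10 wild-type peaks, none with a partner, as is the case for most peaks of either list. PCDH9, a protocadherin gene, held 5 of the wild-type peaks, all on the strand of its 13 other peaks, with folds of 6.44 to 9.16, and 0 in the knockout. NRXN3, a neurexin gene, held 1 coding-strand peak in each list, of 4.99-fold in the knockout and 7.12-fold in the wild type. The knockout peak over TENM3-AS1, in the teneurin gene TENM3, had 9.33-fold and lay opposite to all 14 other peaks of that gene.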

How the data were processed

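The data used were 2 deposited lists of peaks in narrowPeak layout, 1 for each genotype. MACS2 2.2.7.1, HISAT2 2.2.1, SAMtools 1.15.1 and build hg38 come from the submitters' processing notes. Whether replicates were pooled before calling, the sources used here do not say. The deposited fold is a ratio of IP to local input signal, and the −log10 p and −log10 q columns are as deposited, the lowest −log10 q being 2.02 in the knockout and 2.01 in the wild type. The deposited score was not used. The deposited summit is an offset in bases from the peak's start.

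Peaks were overlapped with gene bodies of RefSeq GRCh38.p14 (at least 1 bp), with gene strands and sequences from its promoter table, using pandas 2.3.3, numpy 2.4.6, SciPy 1.17.1 (Clopper-Pearson intervals) and matplotlib 3.10.9 in Python 3.11.15. IP reads were recovered as the whole number that fits the deposited fold and p-value within 0.003, for 407 of 418 knockout and 507 of 515 wild-type overlap peaks. The counting was tested on simulated data in which all other peaks of a coding gene lay on its strand. That test does not cover genes with ties, mixed strands or no other peak. The members and the gene lists were chosen with earlier results of these data known. Genes were named by rule: the 5 opposite-strand and 5 coding-strand peaks of highest fold per list, 1 per antisense gene, the 5 antisense genes with most peaks, shared opposite-strand peaks, up to 4 members per gene list, and METTL3. Others named were chosen after their values were seen. Of the peaks falling under this rule, 1 is not reported here.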

Additional observations from a re-analysis of the deposited data

How the results depend on the processing

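No paired analysis was possible because each list stands for all replicates of a genotype and carries no value per replicate. For the same reason no replicate could be left out. The opposite-strand share moved when the coding strand was taken from the reference table instead of from other peaks, to 25.9% in the knockout and 24.7% in the wild type. Under the other 9 alternatives it differed by less than its interval, with a lowest value of 14.9% in the knockout and 14.7% in the wild type. These alternatives were a −log10 q of at least 5, the summit inside both genes, -AS1 symbols only, only the coding gene that the antisense symbol names, at least 3 other peaks, and other peaks of both lists. Added after seeing the data were 1 peak per antisense gene and leaving out the antisense gene with most opposite-strand peaks. Also added then was leaving out pairs annotated on the same strand, a setting that dropped pairs with neither strand annotated as well. It left 231 assigned peaks in the knockout and 280 in the wild type. The share of overlap peaks without a partner stayed between 77.0 and 82.1% in the knockout and between 81.5 and 85.6% in the wild type. For opposite-strand peaks it ranged over 70.0 to 81.1% in the knockout and 80.0 to 87.5% in the wild type. The median fold of opposite-strand minus coding-strand peaks, −0.11 in the knockout, was below 0 in 6 of 7 alternatives and 0.48 with at least 3 other peaks. In the wild type it was 0.29 and stayed between 0.17 and 0.45. The number of overlap peaks ranged from 345 to 410 in the knockout and 407 to 501 in the wild type. Most summits rest on few reads, and a peak missing from a list is not an absence of the RNA or of its methylation.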
